A study of Mus musculus with 1778 samples.

Results

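The Snail, Twist and Zeb families supply 6 transcription factors that are linked to the epithelial-to-mesenchymal transition (EMT): Snai1, Snai2, Twist1, Twist2, Zeb1 and Zeb2. They were taken by name from a table of 24920 genes counted in single mouse embryonic cells, and all 6 were found in it. They are described here by stage, by plate number and by type of cell, together with how often they were detected in the same cell as each other and as Sox10.

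In an EMT, cells of an epithelium loosen their junctions, lose apical-basal polarity and become motile. Cranial neural crest cells do this when they leave the edge of the neural plate and migrate into the face and pharyngeal arches. Snail proteins (Snai1, Snai2) are zinc finger repressors that bind E-box sequences in promoters such as that of the junction protein E-cadherin, Twist proteins are basic helix-loop-helix (bHLH) factors that bind E-boxes as dimers, and Zeb proteins carry a pair of zinc finger clusters and recruit co-repressors to similar sites. Sox10 is an SRY-related factor found in neural crest cells from about the time they leave the neural tube, and it is used here to mark them.

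The cells came from C57BL/6 embryos that carried Wnt1::Cre and the Rosa26TdTomato reporter, dissected at 4, 6, 8 or 10 somites. In these embryos Cre is driven by Wnt1 sequences, which are active in the dorsal neural tube, and a cell in which Cre has acted stays labelled with its descendants. Single labelled cells were sorted and read by full-length Smart-Seq2, so the label marks a history of Cre and not a present cell type. No treatment or mutation separates the groups, only the stage, and the labels give every sample as cranial neural crest. Of 1778 cells, 1728 were kept, with a minimum of 50000 gene reads and 1500 genes detected, of which 12.7, 48.3, 13.1 and 25.8% were from 4, 6, 8 and 10 somites. No embryo or litter is named in the labels, which makes each stage 1 pool of cells, and no test between stages was possible. Fewer cells of a type and less RNA per cell cannot be told apart in a sum over such a pool.

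Levels are given in reads per 1000000 (RPM) of the reads on genes other than Rn45s, a ribosomal precursor RNA that took 55.03, 59.2, 44.4 and 50.1% of reads at the 4 stages. The remaining reads per cell had medians of 470506, 342303, 517650 and 351778, and ran from 10736 to 1007751 over all cells. Intervals are exact 95% Poisson intervals for reads and exact 95% Clopper-Pearson intervals for shares of cells. They cover counting error only, and the reads, which carry no molecular identifiers, may be copies of 1 molecule. Titles carry 1 of 8 plate numbers, whose meaning the labels do not give and which are called A to H here, in rising order. The median number of detected genes was 10142.5 on plate number A at 6 somites, 9875 on D at 8 somites and 9916.5 on G at 10 somites, against 6180.5 to 9162 on the others. These 3 sets held 22, 15 and 12 cells.

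Clusters of cells made without the 6 factors, Sox10 and Rn45s, and named from marker lists, showed that the sorted cells were not all neural crest. Migrating neural crest-like cells were 37.3% of the 1728, beside 6.02% like the neural plate border and premigratory crest and 24.7% neuroepithelium-like cells. A further 7.75% were like surface ectoderm, 5.56% (96 cells) like head mesoderm, 3.47% (60 cells) like endothelium and 2.43% (42 cells) like the ventral midline. Another 2 clusters, 12.8% of cells together, stayed unnamed, 1 of 37 cells led by the globin genes Hba-x and Hbb-bh1 and a larger one led by Hes3 and Fgf17. Migrating crest-like cells rose from 3.18% of the cells at 4 somites to 21.9, 51.5 and 75.6% at 6, 8 and 10 somites, while neuroepithelium-like cells fell from 59.5 to 29.6, 11.5 and 4.93%. Head mesoderm-like cells were 5.45, 5.63, 7.05 and 4.71%, and endothelium-like cells 2.27, 4.19, 3.96 and 2.47%. Every level over all cells of a stage is read beside this change in make-up.

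Snai1, which represses E-cadherin early in EMT, lies on chromosome 2 from 167538195 to 167542814 on the plus strand of GRCm38. Over all cells of a stage its level was 16.8 RPM at 4 somites (interval 16.02 to 17.6, 1823 reads), 33.4 at 6 (32.8 to 34.1, 10079 reads), 65.1 at 8 (63.7 to 66.6, 7673 reads) and 92.8 at 10 (91.4 to 94.3, 16190 reads). Single cells ran from 0 at every stage to 399.3, 377.6, 324.4 and 474.2 RPM, and the median cell was at 0, 0, 47.03 and 65.2 RPM. The typical cell thus had no Snai1 read at the 2 early stages and held some at the 2 late ones, while the highest cells were alike at all 4. After each cell was thinned to 50000 reads, a Snai1 read was found in 29.5% of cells at 4 somites (23.6 to 36.05), 36.97% at 6 (33.7 to 40.4), 65.6% at 8 (59.1 to 71.8) and 78.96% at 10 (74.9 to 82.7). With a minimum of 3 reads these shares were 9.09, 22.8, 47.1 and 57.7%. Both limits gave the same order of stages.

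Snai2, the paralogue also called Slug, lies on chromosome 16 from 14705852 to 14709385, plus strand, and stayed low. Its level was 3.26 RPM at 4 somites (2.93 to 3.62), 3.37 at 6 (3.17 to 3.59), 5.78 at 8 (5.35 to 6.23) and 6.30 at 10 (5.93 to 6.68). The median cell was at 0 at every stage and the highest cells at 146.3, 213.8, 164.9 and 196.7 RPM. A read was found in 5.91, 6.00, 10.6 and 10.4% of thinned cells, so Snai2 was a gene of few cells, some of them with a high level. Over the whole series, 33 cells held 50% of all Snai2 reads. Snai3, the third Snail gene, had between 0 and 5 reads at a stage.

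Twist1, a bHLH factor needed for the head mesenchyme, lies on chromosome 12 from 33957671 to 33959829, plus strand. Its level was 2.77 RPM at 4 somites (2.47 to 3.10), 5.04 at 6 (4.79 to 5.30), 16.9 at 8 (16.1 to 17.6) and 27.8 at 10 (27.01 to 28.6). The median cell was at 0, 0, 10.8 and 21.2 RPM and the highest at 92.5, 78.02, 98.7 and 410 RPM. As with Snai1, the median cell left 0 between 6 and 8 somites. Thinned cells with a Twist1 read were 9.55% at 4 somites (6.01 to 14.2), 16.1% at 6 (13.7 to 18.8), 40.5% at 8 (34.1 to 47.2) and 55.4% at 10 (50.7 to 60.1). Most of these cells held few reads, as 2.27, 1.80, 7.93 and 19.9% had at least 3.

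Twist2, also called Dermo1, lies on chromosome 1 from 91801461 to 91848028, plus strand, and was the rarest of the 6. Its level was 0.239 RPM at 4 somites (0.156 to 0.351), 0.942 at 6 (0.836 to 1.06), 2.89 at 8 (2.59 to 3.21) and 3.004 at 10 (2.75 to 3.27), and at 4 somites all 26 reads came from 2 cells. A read was found in 0.455, 2.16, 6.17 and 7.01% of thinned cells. With 17 cells holding 50% of its reads over the series, its stage values rest on few cells.

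Zeb1, a repressor of epithelial genes, lies on chromosome 18, and Zeb2, also called Sip1, on chromosome 2 from 44983632 to 45117395 on the minus strand. Zeb1 was at 17.7 RPM at 4 somites (16.9 to 18.5), 24.6 at 6 (24.04 to 25.2), 19.9 at 8 (19.1 to 20.7) and 22.2 at 10 (21.5 to 22.9). The median cell was at 0, 0, 2.94 and 3.97 RPM, the highest at 296.4, 500.9, 304.4 and 391.1 RPM, and 24.1, 28.1, 37.004 and 36.7% of thinned cells had a read. Zeb2 was at 54.7 RPM at 4 somites (53.3 to 56.1), 56.5 at 6 (55.7 to 57.4), 43.8 at 8 (42.6 to 44.98) and 48.1 at 10 (47.03 to 49.1). Its median cell was at 35.6, 31.7, 22.7 and 34.3 RPM and a read was found in 60.9, 63.3, 57.7 and 69.5% of thinned cells. Zeb2 thus already had a read in most cells at 4 somites, and neither Zeb gene showed the steady rise of Snai1 and Twist1. At that stage Snai2 and Twist2 had a read in 5.91 and 0.455% of cells. The shares are not corrected for length and do not rank the genes. Zeb2 has 19.9 kilobases of merged exons, beside 2.02 for Snai2 and 3.17 for Twist2. A single cell at 10 somites reached 2329 RPM of Zeb2. The antisense gene Zeb2os lies inside Zeb2 and was at 0.341 to 0.470 RPM. The sources used here do not say whether counting used strand, so a part of its reads cannot be told from those of Zeb2.

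Levels of different genes are comparable only per length of transcript. Merged exons of all annotated transcripts stand in for it here and can be longer than any 1 transcript. They were 19.9 kilobases for Zeb2 and 10.3 for Zeb1. The place of Snai2 above both Zeb genes at 10 somites may depend on this choice of length. Per kilobase of merged exons, the order at 10 somites was Snai1 (57.3 RPM per kilobase), Twist1 (17.1), Snai2 (3.12), Zeb2 (2.41), Zeb1 (2.16) and Twist2 (0.947). At 4 somites it was Snai1 (10.3), Zeb2 (2.74), Zeb1 (1.72), Twist1 (1.70), Snai2 (1.61) and Twist2 (0.0754). Snai1 led at both stages and Twist2 was last at both, Twist1 was next to Snai1 at 10 somites and behind both Zeb genes at 4, and Zeb1, Twist1 and Snai2 lay within counting error of each other at 4 somites.

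**Figure D1:**
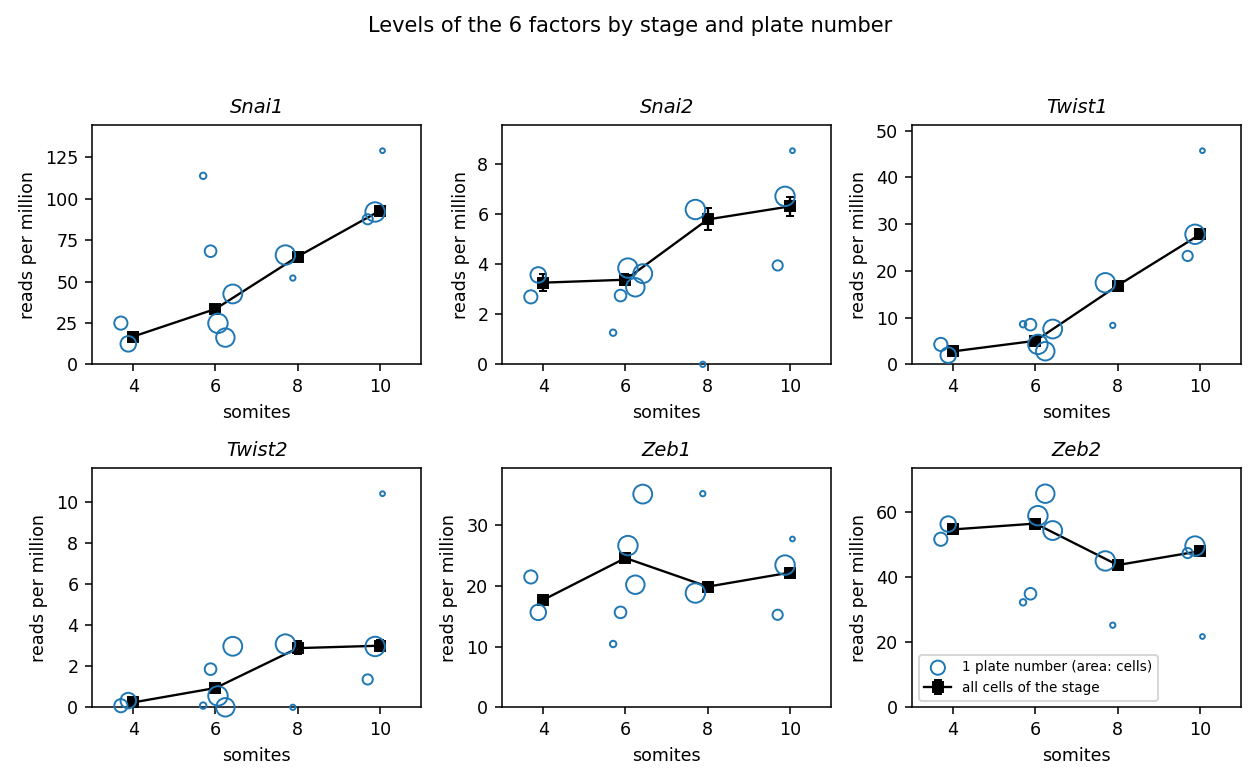
Levels of the 6 factors (RPM, vertical axes, each starting at 0) against the somite stage. Black squares are all cells of a stage with their Poisson intervals and blue circles are single plate numbers, with an area that grows with the number of cells; Snai1 and Twist1 climb over the 4 stages while Zeb1 and Zeb2 stay within 17.7 to 24.6 and 43.8 to 56.5 RPM, and plate numbers of 1 stage are far apart.

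The plate numbers of a stage were far from equal. At 6 somites, Snai1 ran from 16.1 to 113.9 RPM over 5 plate numbers, with a median of 42.5, and Twist1 from 2.80 to 8.58 RPM. The 3 plate numbers at 10 somites gave 87.6, 92.02 and 129.05 RPM of Snai1 and 23.2, 27.8 and 45.7 RPM of Twist1. At 4 somites, the 2 plate numbers gave 24.9 and 12.4 RPM of Snai1 and 4.26 and 1.96 RPM of Twist1, so these stages do not overlap for either gene, whereas 6 somites overlaps both of them for Snai1. Sox10 varied with Snai1 over the plate numbers at 6 somites, from 18.4 to 453.6 RPM. Zeb2 ran the other way at that stage, at 32.3 and 34.9 RPM on the 2 plate numbers with the most Sox10 and at 65.7 RPM on the one with the least.

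Between 4 and 10 somites Twist1 rose 10.0-fold (log2 ratio 3.32, interval 3.16 to 3.50) and Snai1 rose 5.53-fold (2.47, 2.40 to 2.54). Snai2 was 1.93-fold higher (0.95, 0.78 to 1.13), Zeb1 had a log2 ratio of 0.33 (0.25 to 0.41) and Zeb2 one of -0.19 (-0.24 to -0.14). Twist2 was 12.3-fold higher (3.62, 3.08 to 4.28), from 26 reads at 4 somites, but was lower within plate numbers. A gene was called where it was at least 2-fold apart and reached 5 RPM at either stage. Of 5 members that reached 5 RPM, 2 were higher, against 6.17% of 10205 such genes, and 0 were lower, against 6.65%. Twist2, under that level at both stages, was not counted.

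Part of this rise went with the plate numbers. Plate number F held cells of 4 and 6 somites and B cells of 6, 8 and 10 somites, so ratios could be formed within them and added. In that chain Twist1 had a log2 ratio of 1.96 and Snai1 one of 0.74, which is under 2-fold. Here 1 of 4 members was called higher, against 11.1% of 10657 genes, and 0 lower, against 10.0%. Sox10 shrank in the same way, from 4.22 over all cells to 1.41 in the chain. Zeb1 was at 0.33 in both, and Zeb2 changed sign, from -0.19 to 0.66. A second route, 8 against 4 somites on plate number D followed by 10 against 8 on B, was chosen after seeing the data and rests on 15 cells at 8 somites. It gave 1.48 for Snai1, 1.39 for Twist1, 0.41 for Zeb1 and -0.95 for Zeb2. The direction of Snai1 and Twist1 was therefore the same on all 3 routes and that of Zeb2 was not. Snai2 had 0.31 in the chain, and on the second route it had 0 reads in the 15 cells at 8 somites. Twist2 also turned, with fitted log2 ratios of -6.25 in the chain and -1.63 on the second route. Their size depends on the reads added, since Twist2 had 0 reads in 180 cells of plate number F at 6 somites, after 23 reads at 4, and 0 in the 15 cells of plate number D at 8, after 3 at 4. On plate number B it was at 1.86, 3.08 and 1.36 RPM at 6, 8 and 10 somites.

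The steps differed between the factors. From 4 to 6 somites the log2 ratios were 0.99 for Snai1, 0.86 for Twist1, 0.47 for Zeb1, 0.05 for Snai2 and 0.05 for Zeb2. None of 4 members was called higher or lower, against 2.12 and 0.733% of 10091 genes, although Snai1 was just under the limit. From 6 to 8 somites Twist1 rose by 1.74, with 1.04 within plate number B, and was the 1 of 5 members called higher, against 2.84% of 10152 genes, while 0 were lower, against 3.56%. Snai1 had 0.96 at this step over all cells and -0.05 within the plate number. From 8 to 10 somites, 0 of 5 were called in either direction, against 0.593% higher and 0.774% lower of 9942 genes, with 0.72 for Twist1 and 0.51 for Snai1. Within plate number B these were 0.41 and 0.41, so both genes kept their direction at the last step. The median gene moved by less than 0.03 on the log2 scale at each step over all cells.

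Because the make-up of the pools changed so much, the factors were next read by type of cell. Migrating neural crest-like cells had 107.04 RPM of Snai1 (interval 105.8 to 108.3), 25.2 of Twist1 (24.6 to 25.9), 55.1 of Zeb2, 14.03 of Zeb1, 3.49 of Snai2 and 1.30 of Twist2. Thinned cells of this class had a Snai1 read in 91.6%, a Zeb2 read in 74.5% and a Twist1 read in 55.5%, but a Snai2 read in 8.40% and a Twist2 read in 3.89%. With 37.3% of all cells, the class held 78.97% of the Snai1 reads and 76.96% of the Twist1 reads. Its shares of the Snai2 and Twist2 reads were 29.2 and 29.2%, below its share of the cells.

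Head mesoderm-like cells, the mesenchyme that lies among the crest cells and gives head muscle and vessels, carried the most Snai2 and Twist2. They had 39.6 RPM of Snai2 (37.6 to 41.6) and 14.99 of Twist2 (13.8 to 16.3), with reads in 47.9 and 25% of thinned cells. With 5.56% of all cells they held 48.9% of the Snai2 reads and 49.7% of the Twist2 reads. They also had 65.3 RPM of Snai1, 23.8 of Twist1, 47.1 of Zeb1 and 31.9 of Zeb2. This was the class in which all 6 factors were each above 10 RPM. Their Twist2 level was 0 at 4 somites (12 cells), 7.80 RPM at 6 (47 cells), 13.9 at 8 (16 cells) and 44.6 at 10 (21 cells), while Snai2 was at 46.8, 24.3, 48.8 and 58.7 RPM with no such order.

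Endothelium-like cells stood out by Zeb1, at 131.5 RPM (126.9 to 136.2), with a read in 85% of thinned cells. With 3.47% of all cells they held 19.7% of the Zeb1 reads. Zeb2 was at 41.9 RPM there, Twist1 at 11.1, Snai2 at 9.17, Snai1 at 8.91 and Twist2 at 5.57. Among the named classes this was the highest Zeb1 level, followed by head mesoderm-like cells at 47.1 RPM and ventral midline-like cells at 31.2 RPM.

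Summed over all stages, neuroepithelium-like cells, which form the wall of the neural plate, had more of both Zeb genes than migrating crest-like cells. They had less of the other members. They had 63.7 RPM of Zeb2, beside 55.1 in the crest class, and 21.7 of Zeb1, beside 14.03. By stage, Zeb2 was above the crest class only at 6 somites. It was at 58.1, 76.6, 24.5 and 34.8 RPM at 4, 6, 8 and 10 somites, beside 64.2, 65.9, 55.01 and 49.8 RPM. In neuroepithelium-like cells of all stages Snai1 was at 6.75 RPM, Twist1 at 1.19, Snai2 at 0.898 and Twist2 at 0.0609. Zeb2 was at 67.9 RPM in ventral midline-like cells and 68.8 in cells like the plate border and premigratory crest. Surface ectoderm-like cells, the future epidermis, had little of any factor, with 7.29 RPM of Zeb2, 4.75 of Snai1, 2.38 of Zeb1, 2.08 of Snai2, 1.30 of Twist1 and 0 reads of Twist2. A Zeb2 read was found in 11.2% of thinned surface ectoderm-like cells and in 66.4% of neuroepithelium-like cells. Both classes are epithelia, and they differed in Zeb2 far beyond counting error.

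Cells like the plate border and premigratory crest, where crest cells are specified before they leave, lay between neuroepithelium and migrating crest in Snai1 and Twist1. Their Snai1 level was 41.7 RPM (39.7 to 43.7), with a read in 50% of thinned cells. Twist1 was at 4.73 RPM (4.09 to 5.45), with a read in 13.5%. Snai2 was at 2.43 RPM and Twist2 at 0.172 RPM. Summed over all stages, Zeb1, at 9.78 RPM, was below its level in both other classes and Zeb2, at 68.8 RPM, above it. In the clustering used here, all cells of this class came from 4 and 6 somites, with 30 and 74 cells. At 4 somites Snai1 was at 52.9 RPM and Twist1 at 4.33 RPM here, beside 105.9 and 6.45 RPM in migrating crest-like cells of that stage. At 6 somites they were at 35.3 and 4.96 RPM, beside 105.5 and 10.4 RPM. The lack of later cells in this class depended on the clustering. With another seed it held 28, 73, 13 and 15 cells at 4, 6, 8 and 10 somites. A lower and a higher resolution also placed cells of 8 and 10 somites in it.

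**Figure D2:**
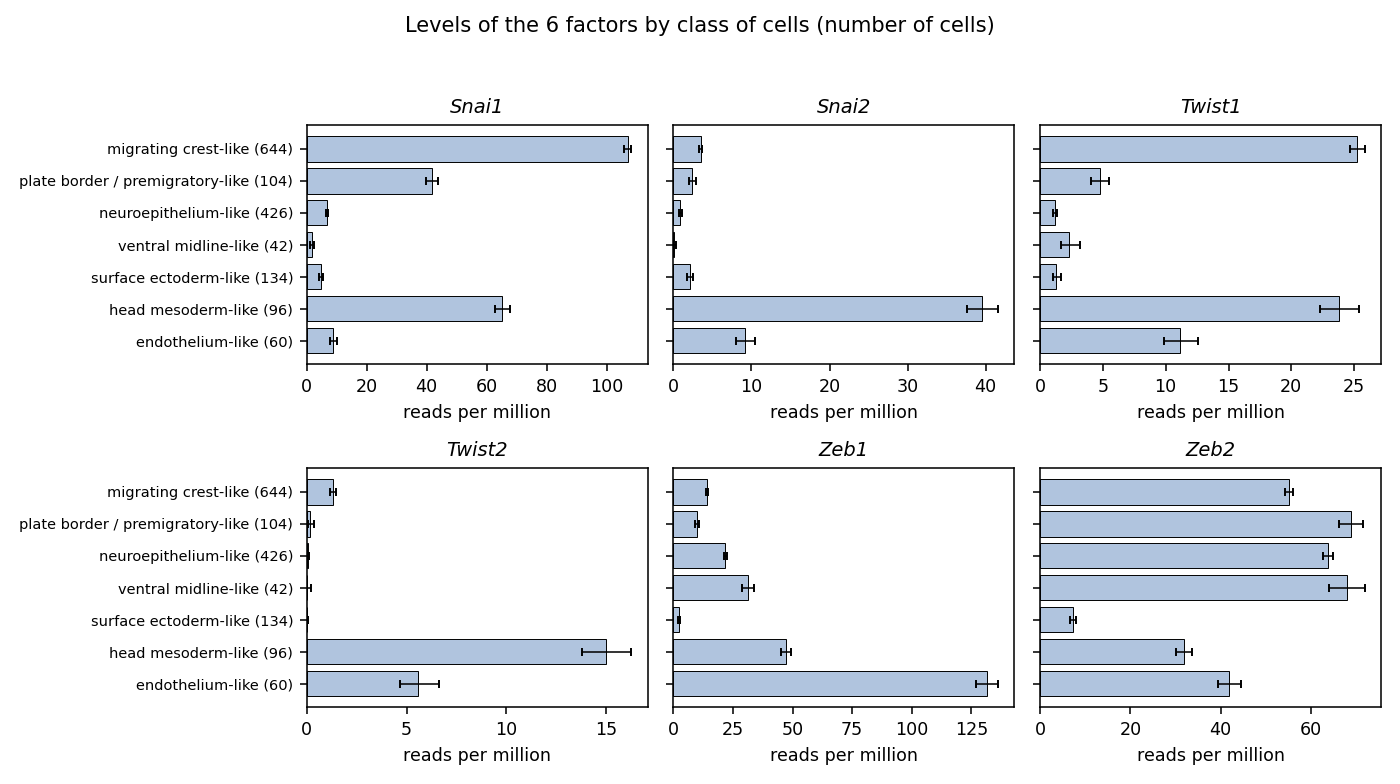
Levels of the 6 factors (RPM, horizontal axes from 0) in each class of cells, with the number of cells in brackets and Poisson intervals. Migrating crest-like cells have the longest bars for Snai1 and Twist1, head mesoderm-like cells for Snai2 and Twist2 and endothelium-like cells for Zeb1, while Zeb2 is within 31.9 to 68.8 RPM in all named classes but surface ectoderm.

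The unnamed cluster led by globin genes had 82.1 RPM of Snai1, 12.01 of Twist1 and 6.44 of Twist2, and the median number of genes detected in its cells was 10522. All of its 37 cells were from 6 and 8 somites. Sox10 was at 263.8 RPM in this cluster, with a read in 91.9% of its thinned cells. The unnamed cluster led by Hes3 had 5.16 RPM of Snai1, 53.03 of Zeb2 and 24.4 of Zeb1, beside 6.75, 63.7 and 21.7 RPM in neuroepithelium-like cells.

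The rise of Snai1 over the stages was not seen inside the migrating crest-like class. There Snai1 was at 105.9 RPM at 4 somites (7 cells), 105.5 at 6, 95.7 at 8 and 112.96 at 10, and the median cell at 6, 8 and 10 somites was at 87.7, 75.7 and 84.9 RPM. Thinned cells with a read were 88.5, 90.6 and 93.8% at those 3 stages. Within plate number B the levels were 105.1, 97.3 and 101.8 RPM at 6, 8 and 10 somites. Over the plate numbers with more than 7 such cells, Snai1 ran from 89.9 to 144.3 RPM at 6 somites and from 101.8 to 124.04 RPM at 10 somites, so these stages overlapped.

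Twist1 did rise inside the class. It was at 6.45 RPM at 4 somites (7 cells, 17 reads), 10.4 at 6 (9.65 to 11.2), 24.1 at 8 (22.9 to 25.4) and 33.1 at 10 (32.2 to 34.1). The median cell was at 6.28, 7.43, 17.9 and 26.4 RPM, and reads were found in 28.6, 36.3, 52.99 and 67.4% of thinned cells. The log2 ratio of 10 against 6 somites was 1.67 over all these cells and 1.13 within plate number B. In that plate number the levels were 12.2 RPM at 6 somites (28 cells), 24.8 at 8 (110 cells) and 26.9 at 10 (45 cells), so the step from 6 to 8 somites had a log2 ratio of 1.02 and the step from 8 to 10 one of 0.11. The 5 plate numbers at 6 somites ran from 6.53 to 12.2 RPM and the 3 at 10 somites from 26.9 to 45.7 RPM, with no overlap. At 8 somites the 7 cells of plate number D were at 11.5 RPM, inside the range of 6 somites.

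The class was made of different clusters at early and late stages. Cluster 0, led by Gfra1, Cnp and Sox9, held all 7 cells of 4 somites and nearly all cells of 6 somites. At 8 and 10 somites 4 other clusters held nearly all cells, 2 of them led by Plcg2 and Tbx3 with Ret or Adam12, 1 by Aldh1a2 and 1 by Crabp1 and ribosomal protein genes. Twist1 was at 9.93 RPM in cluster 0 and at 18.4, 40.4, 28.7 and 33.02 RPM in the 4 others. Snai1 was at 106.98 RPM in cluster 0 and at 78.7, 139.1, 104.9 and 101.8 RPM in the others, on both sides of it. The cluster led by Aldh1a2 stayed unnamed at a lower resolution and with another seed, so its place in the class depended on the clustering.

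Zeb1 in migrating crest-like cells was at 1.14 RPM at 4 somites, from 3 reads in 7 cells, and at 11.4, 11.7 and 16.6 RPM at 6, 8 and 10 somites, while Zeb2 was at 64.2, 65.9, 55.01 and 49.8 RPM at the 4 stages. The order of Zeb2 was not the same within plate number B, where it was at 40.9, 56.4 and 48.3 RPM at 6, 8 and 10 somites. Snai2 was at 2.34, 2.96 and 4.34 RPM and Twist2 at 0.499, 2.45 and 1.18 RPM at those 3 stages.

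**Figure D3:**
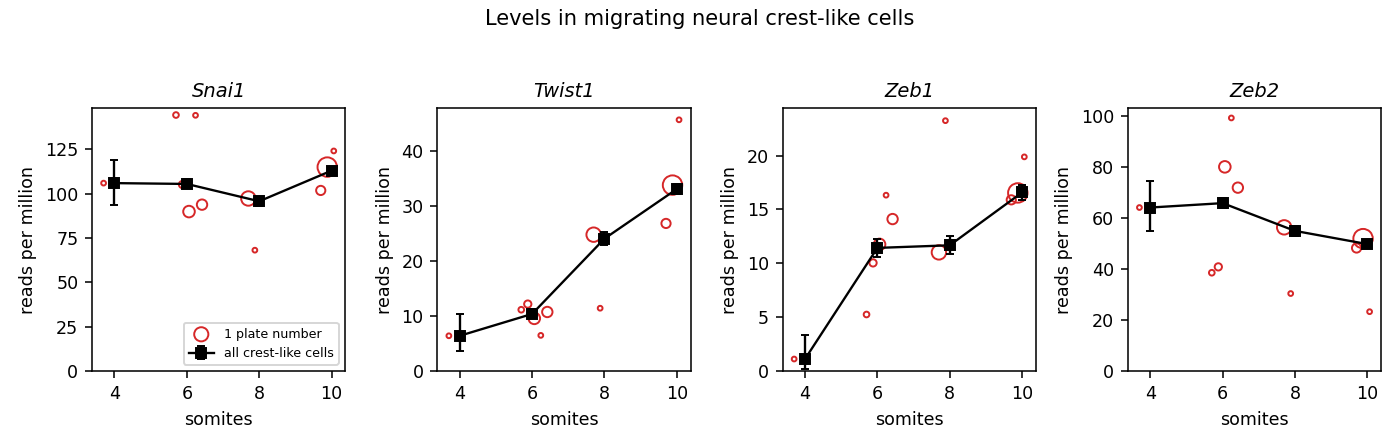
Levels of Snai1, Twist1, Zeb1 and Zeb2 in migrating neural crest-like cells (RPM, vertical axes from 0) against the somite stage. Black squares are all cells of the class with Poisson intervals and red circles single plate numbers, with an area that grows with the number of cells; Snai1 stays between 95.7 and 112.96 RPM over all cells while Twist1 goes from 6.45 to 33.1 RPM.

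Promoters are shown for Snai1 and Twist1, the 2 members that reached 5 RPM, passed 2-fold between 4 and 10 somites and had the highest odds ratio of detection in the same cell. The RefSeq table for GRCm38.p6 held a window for both. The 250 bases before each start are printed on the plus strand, with capitals for matches to the E-box CAGGTG that Snail and Zeb proteins prefer (read as CACCTG on the other strand), to the general E-box CANNTG of bHLH factors, which includes CAGGTG, and to the SRY-related cores ACAAAG and ACAATG, all searched on both strands.
Snai1, chr2:167537945-167538194: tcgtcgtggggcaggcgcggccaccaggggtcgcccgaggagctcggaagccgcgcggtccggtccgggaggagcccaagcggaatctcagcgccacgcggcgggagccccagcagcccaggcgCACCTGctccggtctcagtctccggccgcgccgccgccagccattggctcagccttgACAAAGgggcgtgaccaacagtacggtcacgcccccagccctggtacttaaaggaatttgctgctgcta
Twist1, chr12:33957421-33957670: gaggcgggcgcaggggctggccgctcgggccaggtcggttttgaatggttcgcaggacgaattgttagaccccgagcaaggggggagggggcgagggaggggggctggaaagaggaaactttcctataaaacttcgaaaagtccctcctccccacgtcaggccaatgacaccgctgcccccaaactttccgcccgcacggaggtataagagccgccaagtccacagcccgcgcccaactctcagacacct
The Snai1 window held 1 CAGGTG, at position -126 from the start, and 1 ACAAAG at -69, with a GC content of 70%. The Twist1 window, with 62.4% GC, held none of these letters. Over 32851 such windows, CAGGTG was found in 17.2%, CANNTG in 66.2%, ACAAAG in 16.5% and ACAATG in 10.7%. A match describes the letters in the window and is not evidence of binding.

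Sox10 split the cells sharply for Snai1 and less so for the other factors. Of 1722 cells thinned to 50000 reads, 920 had no Sox10 read and the rest had at least 1. Snai1 was found in 85.8% of cells with Sox10 (83.2 to 88.1) and in 19.9% of those without (17.4 to 22.6), and Twist1 in 49.1% (45.6 to 52.6) and 10.7% (8.73 to 12.8). Zeb2 was found in 72.6 and 56.2%, Snai2 in 8.85 and 6.74%, Twist2 in 4.74 and 2.83% and Zeb1 in 29.7 and 32.1%. The cells with Sox10 had a median of 7556 detected genes and those without 6564.5. A Sox10 read itself was found in 99.5% of migrating crest-like cells, and in 8.33% of endothelium-like, 9.70% of surface ectoderm-like and 6.34% of neuroepithelium-like cells.

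The split was present at each stage. Snai1 had a log2 ratio of cells with against cells without Sox10 of 3.005 at 4 somites, where 26 of 220 cells had Sox10, and of 3.34, 2.06 and 2.40 at 6, 8 and 10 somites. Twist1 had 0.17 at 4 somites, from 5 reads in the cells with Sox10, and 1.70, 1.13 and 1.89 at the later stages. Zeb1 was lower in cells with Sox10 at every stage, with log2 ratios of -1.90, -1.25, -1.20 and -1.23. Zeb2 had -0.06, 0.31, 0.37 and 0.38. Snai2 and Twist2 had no constant direction and, at 10 somites, were lower with Sox10, by log2 ratios of -1.57 and -2.65. These were the same 2 genes that were highest in head mesoderm-like cells.

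Of the members with at least 5 RPM in either set of cells, 1 of 3 was at least 2-fold higher with Sox10 at 4 somites, 2 of 4 at 6, 2 of 5 at 8 and 2 of 6 at 10. The shares of all such genes were 4.60, 2.26, 3.21 and 2.54%. The higher members were Snai1 at 4 somites and Snai1 and Twist1 after that. Lower by 2-fold were 1, 1, 1 and 3 members, against 9.67, 6.73, 10.6 and 13.2% of all such genes, and they were Zeb1 at each stage, joined by Snai2 and Twist2 at 10 somites.

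**Figure D4:**
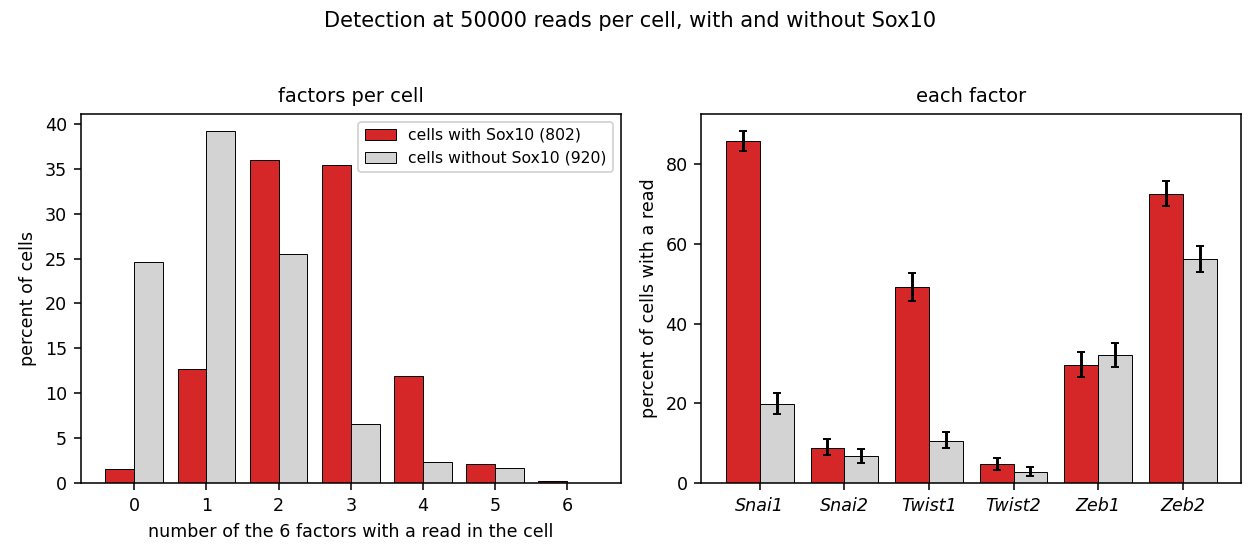
Detection of the 6 factors at 50000 reads per cell in cells with and without (920) a Sox10 read: percent of cells by the number of factors detected (left) and by factor with Clopper-Pearson intervals (right). Cells with Sox10 peak at 2 or 3 factors and those without at 1, and the gap is widest for Snai1, 85.8 against 19.9%.

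A single cell seldom held the whole set. Of the cells with Sox10, 1.62% had none of the 6 factors, 12.7% had 1, 35.9% had 2, 35.4% had 3, 11.97% had 4, 2.12% had 5 and 0.249%, which was 2 cells, had all 6. Of 920 cells without Sox10, 24.6% had none, 39.1% had 1, 25.5% had 2, 6.63% had 3, 2.39% had 4 and 1.74% had 5. The commonest set changed with the stage. At 4 somites it was Zeb2 alone, in 23.6% of cells, and at 6 somites again Zeb2 alone, in 22.7%. At 8 somites it was Snai1, Twist1 and Zeb2 together, in 12.3%, and at 10 somites the same set, in 21.7%. A gene with no read at this depth may still be expressed, so these sets are lower limits on what a cell held. Detection was also not corrected for the length of transcripts, so Zeb2 alone as a set does not rank Zeb2 above the other factors.

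Co-detection was measured by an odds ratio pooled over the 12 combinations of plate number and stage, which keeps differences between them out of the value. With Sox10 it was 17.1 for Snai1 (interval 12.8 to 22.8), 4.67 for Twist1 (3.48 to 6.26) and 2.69 for Zeb2 (2.08 to 3.49). It was 0.904 for Snai2 (0.587 to 1.39), 0.630 for Twist2 (0.359 to 1.10) and 0.491 for Zeb1 (0.378 to 0.639). Over 8389 genes the median odds ratio with Sox10 was 1.17, the 5th percentile 0.480 and the 95th percentile 2.22. Zeb1, at 0.491, thus lay just inside the range between these percentiles. An odds ratio of at least 2 was found for 3 of 6 members and for 6.83% of those genes. When at least 3 reads were asked for, the values were 14.5 for Snai1, 3.40 for Twist1, 1.87 for Zeb2 and 0.261 for Zeb1.

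Among the 15 pairs of members, Snai1 and Twist1 had the highest odds ratio, 5.36 (4.03 to 7.13). Snai1 was the more widely detected of the pair, so that 83.5% of the cells with Twist1 had Snai1 but 47.2% of 871 cells with Snai1 had Twist1. By stage, 12.3, 31.2, 52.3 and 65.6% of the cells with Snai1 also had Twist1, and 38.1, 71.6, 84.8 and 93.5% of the cells with Twist1 had Snai1. The order of these shares follows from the number of cells with each gene. With a minimum of 3 reads the odds ratio was 2.94.

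The other pairs had lower odds ratios. Snai1 and Twist2 had an odds ratio of 4.03 (1.83 to 8.89), from 56 of 64 cells with Twist2, and 1.16 with at least 3 reads. Snai2 and Twist2 had 3.90 (2.13 to 7.14, 17 cells with both), Twist2 and Zeb1 had 3.22 (1.91 to 5.43, 40 cells), and Snai1 and Snai2 had 2.87 (1.82 to 4.51, 99 cells). Snai2 and Twist1 had 2.47 (1.69 to 3.602), Snai2 and Zeb1 had 1.98 (1.38 to 2.84), and Snai1 and Zeb2 had 1.67 (1.34 to 2.09). With at least 3 reads, Snai2 with Twist2 rose to 12.5 and Twist2 with Zeb1 to 8.29. These 3 genes were all higher in head mesoderm-like than in migrating crest-like cells. Snai1 and Zeb1 were found together less often than apart, at 0.699 (0.552 to 0.885), and Zeb1 and Zeb2 had 1.11 (0.894 to 1.38).

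When cells like head mesoderm, endothelium and surface ectoderm were left out, Snai2 and Twist2 moved to the side of Sox10. Without those 3 classes the odds ratio with Sox10 was 5.19 for Snai2, 6.22 for Twist2, 12.03 for Twist1 and 27.5 for Snai1, while Zeb1 was at 0.503. Zeb2 went from 2.69 to 1.95, under the limit of 2. No intervals were formed for these values, and Twist2 had a read in only 64 cells before the classes were left out. Without the 3 classes Snai1 and Twist2 had 13.3, Snai2 and Twist2 had 2.17, Twist2 and Zeb1 had 1.97 and Snai2 and Zeb1 had 1.73. Head mesoderm-like cells held 48.9 and 49.7% of the Snai2 and Twist2 reads, and 10.4% of these cells had Sox10. Higher odds ratios without that class were therefore to be foreseen. The median over all genes was not formed again for the remaining cells, and the part of the 3 classes in the low values was not tested.

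Inside the migrating crest-like class Snai1 and Twist1 had an odds ratio of 1.61, with an interval from 0.885 to 2.92. Snai1 and Zeb2, at 1.67 over all cells, had 0.395 here (0.165 to 0.948), on the other side of 1. Snai2 and Zeb1 had 2.04 (1.15 to 3.64) and Twist2 and Zeb1 had 2.58 (1.16 to 5.73, 13 cells with both). Of the cells with Snai1 in this class, 56.9% had Twist1. The interval of Snai1 and Twist1 includes 1, so no link between them was detectable inside the class at this depth.

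**Figure D5:**
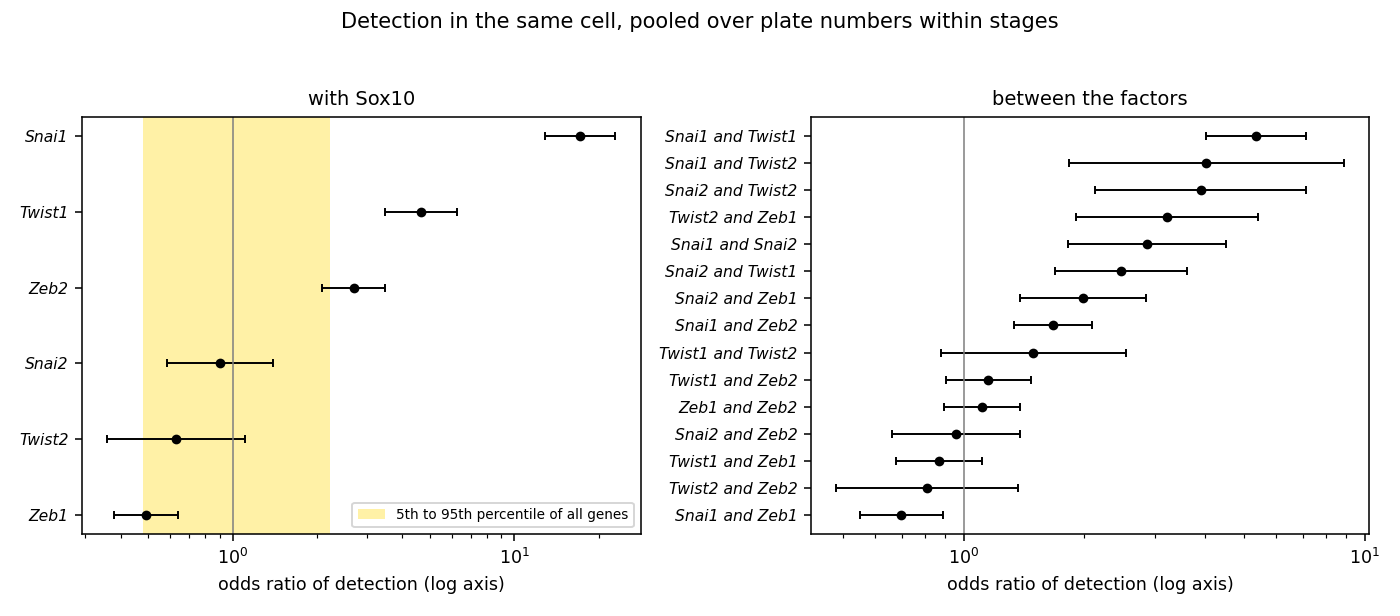
Odds ratios of detection in the same cell (horizontal, log axis) with 95% intervals, for each factor with Sox10 and for the 15 pairs of factors, over 1722 cells. Snai1 with Sox10 lies farthest right at 17.1 and Snai1 with Twist1 leads the pairs at 5.36. Zeb1 with Sox10 lies left of 1 at 0.491, just above the 5th percentile of 8389 genes with Sox10, 0.480.

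After centring within plate number and stage, the correlation of log2 thinned reads of Snai1 and Twist1 was 0.32 over 1722 cells, and the next pair, Snai2 and Twist2, had 0.18. The points are cells that share library and depth, so the values are descriptions. Among 9585 genes with a read in at least 10% of cells, those most like Snai1 were Sox10 (0.57), Fam212a (0.56) and Ets1 (0.56), the last an ETS-domain factor of cranial crest. For Twist1 they were Fam212a (0.36), Snai1 (0.32) and Prrx2 (0.31), the last a homeobox factor of head mesenchyme. For Snai2 they were Foxc2 (0.32), a forkhead factor of head mesoderm, and Rab3il1 (0.31), for Twist2 Pcolce (0.32), which helps to process collagen, and for Zeb1 Lcp1 (0.31), an actin-bundling protein. No gene reached 0.3 with Zeb2.

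Genes that work with the 6 factors were read from fixed lists, again at 10 against 4 somites and with 2-fold as the limit. A list gene was counted where it reached 5 RPM at any stage. The shares of all genes over all cells asked for 5 RPM at 4 or 10 somites. Id4, Krt19, Tjp3 and Col1a1 reached that level only at 6 or 8 somites. The bHLH partners of Twist were the E-proteins, with which it forms dimers, the Id proteins, which capture E-proteins, and the related factors Hand1 and Hand2, which were the 2 of 9 that did not reach 5 RPM. Of the other 7, 2 were higher and 0 lower, against 6.17 and 6.65% of all genes, with a median log2 ratio of 0.57, against 0.01 for all genes. The E-protein Tcf12 was at 93.2, 165.4, 296.8 and 346.8 RPM at the 4 stages, a log2 ratio of 1.90 and of 1.47 within plate numbers. It was at 364.2 RPM in migrating crest-like and 109.05 in neuroepithelium-like cells. Tcf4, a second E-protein, had 0.57 (0.36 within plate numbers), Id1 had 1.27 (0.07) and Id4 0.62 (0.18).

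All 14 co-repressors of Snail and Zeb reached 5 RPM. Of these 1 was higher and 0 lower, near the 6.17 and 6.65% of all genes, and the median log2 ratio was -0.07. Within plate numbers 1 was higher, Rcor1, part of a deacetylase complex, with -0.55 over all cells and 1.63 within plate numbers. Hdac1, a histone deacetylase, had -0.47 (-0.27 within plate numbers), Suz12, a Polycomb subunit, -0.60 (-0.01), Sin3a, a scaffold of deacetylase complexes, -0.46 (-0.03), and Limd1, a LIM protein, 0.56 (0.42). The member that was higher, the LIM-only factor Lmo4, had 1.54 over all cells and -0.52 within plate numbers and, like Rcor1, was named after its values were seen. Of 9 genes that control Snail protein, 0 were higher and 1 lower, near the 6.17 and 6.65% of all genes, with a median of -0.14. The lower one was Pak1, a kinase that phosphorylates Snai1, at -1.45 (-0.28 within plate numbers). Btrc and Fbxl14, ubiquitin ligase subunits that bind Snai1, had -0.18 and -0.14, and Lats2, a kinase of the Hippo pathway, 0.25 (1.09 within plate numbers).

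Epithelial genes known as targets of these repressors were mostly lower at 10 somites. Of 20, 17 reached 5 RPM, 10 were lower and 1 was higher, against 6.65% of all genes lower and 6.17% higher, with a median log2 ratio of -1.35. Within plate numbers 5 were lower and 5 higher, against 10.0 and 11.1% of all genes, with a median of -0.07. Cdh1, which encodes E-cadherin, was at 95.03, 56.8, 13.8 and 16.1 RPM, a log2 ratio of -2.56 over all cells and of -0.07 within plate numbers. Epcam, an epithelial adhesion protein, had -2.29 (-1.53 within plate numbers) and Rab25, a trafficking GTPase, -2.65 (-1.97). The keratin Krt19, the 1 called higher, had 2.35 (2.56). It was at 0.856 RPM at 4 somites and 4.38 at 10, and reached 5 RPM only at 6 somites (6.09). By class, Cdh1 was at 321.5 RPM in surface ectoderm-like cells, 47.2 in neuroepithelium-like, 6.37 in migrating crest-like and 0.821 in head mesoderm-like cells. Surface ectoderm-like cells fell from 11.8% of cells at 4 somites to 1.57% at 10, and the 10 markers of that class summed to 535.7, 644.08, 365.08 and 259.2 RPM, with Trp63 at 0 at 4 somites. The part of these cells in the fall of the epithelial genes was not tested. Neuroepithelium-like cells thus held Zeb2 at 63.7 RPM and Cdh1 at 47.2 RPM in the same class.

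Of 8 factors known to oppose EMT, 3 reached 5 RPM, 2 were lower and 0 higher, against 6.65% of all genes lower and 6.17% higher. Grhl2, a grainyhead factor that keeps epithelial junctions, had a log2 ratio of -1.95 (-1.10 within plate numbers), Elf3 -1.43 (-0.32) and Grhl3 -0.44 (-1.38). Grhl2 was at 83.3 RPM in surface ectoderm-like and 2.998 in migrating crest-like cells.

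Mesenchymal and migration genes were more often higher than lower at 10 somites. Of 21, 20 reached 5 RPM, 11 were higher and 1 lower, against 6.17 and 6.65% of all genes, with a median log2 ratio of 1.13. Within plate numbers 8 were higher and 1 lower, against 11.1 and 10.0%, with a median of 0.73. Itga4, an integrin subunit of migrating crest, had 3.81 (2.81 within plate numbers), and Cdh6, a cadherin of the dorsal neural tube and crest, had 2.49 (0.87). Pdgfrb, a receptor of mesenchymal cells, had 2.34 (2.68) and was at 183.4 RPM in head mesoderm-like and 25.7 in migrating crest-like cells. Acta2, smooth muscle actin, had 7.001 (4.13) and was at 98.03 RPM in head mesoderm-like cells and 2.62 in migrating crest-like cells. Its level was 0.0552, 14.6, 24.2 and 7.66 RPM at the 4 stages. The ratio thus rests on a very low level at 4 somites, and Acta2 fell after 8 somites. Acta2 was also among the top genes of the unnamed cluster led by globin genes. The head mesoderm markers summed to 71.7, 99.5, 114.8 and 110 RPM at the 4 stages, and their part in the change of Acta2 and Pdgfrb was not tested.

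Of 12 crest factors that act with them, 10 reached 5 RPM, 4 were higher and 2 lower, against 6.17 and 6.65% of all genes, with a median of 0.41. The counts within plate numbers were also 4 and 2, against 11.1 and 10.0%. Sox5 had a log2 ratio of 3.49 (2.14 within plate numbers), Tfap2b 3.47 (2.52) and Ets1 2.74 (2.41). Foxd3, a forkhead factor of early crest, went the other way, at -1.06 (-2.60). Ets1 was at 496.3 RPM in migrating crest-like cells, 380.5 in endothelium-like and 8.26 in neuroepithelium-like cells. Of 5 further members of the Snail and Twist families (Snai3, Scrt1, Scrt2, Tcf15 and Msc), 0 reached 5 RPM at a stage. Msc, a bHLH factor of head muscle, was at 3.56 RPM at 10 somites and 14.7 RPM in head mesoderm-like cells.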

How the data were processed

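The deposited table gave counts, that is unnormalized whole numbers of reads for each gene in each cell, judged from its values. Per the submitters' processing notes, bcl2fastq 2.18, STAR 2.6 and the mm10 genome were used. The read counter, annotation, strand and the treatment of reads with several positions were not given in the sources used here. Positions are from GENCODE vM21 on GRCm38, matched by symbol, and promoters from RefSeq on GRCm38.p6.

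The 6 members, the gene lists and the marker lists were chosen with earlier results of these data known. The kept cells were 220, 835, 227 and 446 at 4, 6, 8 and 10 somites. Plate letters A to H stand for 6150653, 6150657, 6150662, 6150663, 7350589, 7350590, 7350657 and 7350658. Each sample is 1 cell and no embryo is named, so no p-values were computed. Reads were summed per stage, plate number or class, and 0.5 reads were added for log2 ratios. Shares of cells used reads drawn down to 50000 per cell, without 6 shallower cells. Odds ratios were pooled over plate number within stage (Mantel-Haenszel) and tested on simulated data.

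Cells were clustered (scanpy 1.11.5, igraph 0.11.9) on log counts per 10000 over 2000 variable genes, with 30 components, 15 neighbours and resolution 1, which gave 14 clusters. Cells had been sorted singly and no doublet caller was run. Clusters were named from their markers only. Of each list, up to 4 genes were named: the largest log2 ratios of 10 against 4 somites that kept their sign within plate numbers. Up to 3 genes with a correlation of at least 0.3 were named per member. Alternatives included the total with Rn45s, edgeR 4.0.16 and DESeq2 1.42.0 scaling, cell filters, reads added, each plate number or cell class left out, detection limits and clustering settings.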

Additional observations from a re-analysis of the deposited data

How the results depend on the processing

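Among the recomputed counts of members past a limit, 15 moved and the rest were within 1.5 times their main value, no direction past 2-fold at 5 RPM reversed in the settings run, and the cause of each move was not tested. For 10 against 4 somites, the 2 members higher became 1 within shared plate numbers, and the 0 lower became 1 by way of 8 somites (chosen after seeing the data), which was Snai2 with 0 reads in 15 cells. For 6 against 4 somites, the 0 members higher became 1 with at least 200000 reads and 3000 genes per cell, 1 without the head mesoderm, endothelium and surface ectoderm classes, 2 without plate number D and 2 without E. For 8 against 6 somites, the 1 member higher became 2 with Rn45s in the total, with DESeq2 scaling, within the shared plate number, without plate number A, without H and without the cluster led by Hba-x (chosen after seeing the data), and 0 without B, where the 0 lower became 1. For 10 against 8 somites, the 0 higher became 2 without plate number B. Over its alternatives, the log2 ratio of 10 against 4 somites ran from 0.74 to 2.91 for Snai1 (past 2-fold in 18 of 19), from 1.39 to 3.90 for Twist1 (19 of 19), from -0.01 to 0.50 for Zeb1 and from -0.95 to 0.66 for Zeb2. That of Twist2 ran from 3.17 to 5.04 where no step held 0 reads, and was -6.25 within plate numbers and -1.63 by way of 8 somites. For 8 against 6 somites, Twist1 ran from 0.85 to 2.19 on the log2 scale and Snai1 from -0.05 to 1.41. The shares of cells depend on depth: at 200000 reads per cell, Twist1 was found in 77.01% of cells at 10 somites, against 55.4% at 50000, and Snai1 in 84.4%, against 78.96%. With at least 3 reads these were 19.9 and 57.7%. No analysis paired by cell or embryo was possible because the labels name no embryo, and plate numbers were the only link used between stages. No result comes from a test.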
